A study of Mus musculus with 36 samples.

Results

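Circadian clock genes were examined in the lungs of mice exposed to crude oil and oil dispersants. They are the 10 genes Per1, Per2, Per3, Arntl, Clock, Npas2, Nr1d1, Nr1d2, Dbp and Tef, chosen by gene symbol among the 18691 gene names that the female and male count tables hold between them, and all 10 are rows of both tables. The libraries were made from left lungs of 36 wild-type C57BL/6 mice, 18 female and 18 male, all young adults with no transgene or deletion. Mice received saline, oil, the dispersant Corexit 9500, the dispersant Corexit 9527, or oil together with one of the dispersants (9500+oil and 9527+oil), which makes 6 groups of 3 female and 6 groups of 3 male mice. Doses were given at a concentration of 0.1 of the accommodated fraction on days 0, 7 and 13, and lungs were taken on day 14. The labels call the route intratracheal instillation, and the methods call it oropharyngeal aspiration. The deposited design text says that male and female mice were treated separately. A difference in level between the sexes therefore cannot be told apart from one between the separate treatments. The time of day of dosing or of collection is not given in the sources used here, and mice are named by sex, treatment and their number from 1 to 18 within a sex.

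The clock is a feedback loop of transcription that runs in nearly every cell. Arntl (also called Bmal1) pairs with Clock, or with its relative Npas2, and this pair binds E-box sequences and switches on the period genes Per1, Per2 and Per3, the nuclear receptors Nr1d1 and Nr1d2 (REV-ERB alpha and beta), and the PAR bZIP factors Dbp and Tef. The PER proteins, with the cryptochromes, inhibit the Arntl pair. The REV-ERB receptors repress Arntl and Npas2 by binding the elements that the ROR receptors also bind. The loop therefore has genes that peak at opposite phases of the day, with Arntl and Npas2 on one side and the Dbp, Nr1d1 and Per group on the other. In the lung it runs in airway epithelium and in resident immune cells.

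Windows around the start sites were searched for sequences that factors of the loop are known to bind. RefSeq promoter windows on build GRCm38.p6, each of 300 bases with 250 before a transcript's start, were found for 9 of the 10 genes, in 14 windows. They were searched on both strands for the E-box (CACGTG), the D-box bound by Dbp and Tef (TTANGTAA), the cyclic AMP response element (TGACGTCA) and the ROR/REV-ERB element. Windows of Per1, Tef, Per3 and Arntl hold a match and are shown here for that reason, while those of Clock, Npas2, Nr1d1, Nr1d2 and Dbp hold none. They are printed in lower case with each match in capitals and 5′ to 3′ on the gene's strand. The Per1 window, at chr11:69098699-69098998 on the plus strand, has an E-box at -166 from the start site. The Tef window, at chr15:81802423-81802722 on the plus strand, has one at -127, and a further Tef window has one at -138. The Per3 window, at chr4:151044616-151044915 on the minus strand, has D-boxes at -205 and -158. The Arntl window, at chr7:113207261-113207560 on the plus strand, has a ROR/REV-ERB element after the start site, from base 28 of the transcript.
Per1: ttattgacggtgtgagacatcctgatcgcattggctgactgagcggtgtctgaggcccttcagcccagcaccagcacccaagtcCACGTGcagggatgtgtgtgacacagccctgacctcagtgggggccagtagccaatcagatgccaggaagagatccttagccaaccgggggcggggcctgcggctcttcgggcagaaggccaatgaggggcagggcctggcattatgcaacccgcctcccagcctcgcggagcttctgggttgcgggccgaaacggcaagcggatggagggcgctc
Tef: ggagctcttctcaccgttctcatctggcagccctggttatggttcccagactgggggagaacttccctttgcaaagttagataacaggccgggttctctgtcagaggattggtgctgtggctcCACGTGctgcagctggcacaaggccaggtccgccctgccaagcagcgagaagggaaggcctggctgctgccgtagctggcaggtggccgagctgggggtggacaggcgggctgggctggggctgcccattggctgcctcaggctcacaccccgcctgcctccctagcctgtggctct
Per3: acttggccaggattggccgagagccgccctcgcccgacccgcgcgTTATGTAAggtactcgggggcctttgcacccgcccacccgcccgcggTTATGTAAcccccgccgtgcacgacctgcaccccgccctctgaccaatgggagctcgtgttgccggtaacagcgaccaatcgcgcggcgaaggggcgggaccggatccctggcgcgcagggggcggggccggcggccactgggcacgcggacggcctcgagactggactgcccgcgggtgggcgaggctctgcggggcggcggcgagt
Arntl: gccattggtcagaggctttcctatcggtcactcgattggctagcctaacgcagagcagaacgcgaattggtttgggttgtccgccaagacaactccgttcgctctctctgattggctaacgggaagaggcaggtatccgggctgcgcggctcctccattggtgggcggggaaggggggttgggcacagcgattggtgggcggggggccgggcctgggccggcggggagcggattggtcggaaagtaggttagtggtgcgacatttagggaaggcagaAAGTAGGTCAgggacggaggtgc
Among all 32851 promoter windows of the table, 7.15% hold the E-box, 2.32% the D-box, 1.79% the cyclic AMP response element and 0.606% the ROR/REV-ERB element. The E-box is in 3 of the 14 windows of clock genes, the D-box and the ROR/REV-ERB element in 1 of the 14 each, and the cyclic AMP response element in 0 of the 14. Both Tef windows are among the 3, so by gene the E-box is in 2 of 9, against 8.09% of all genes. A further window of Per1 and a further window of Arntl hold no match. A match describes these letters in this window and is not a measured binding site.

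The counts of a mouse summed to 17501180 at the lowest and 30011557 at the highest. Among female libraries 5 stood apart, those of saline mouse 3, oil mouse 6, 9500 mouse 7, 9527 mouse 11 and 9500+oil mouse 14. Each listed 35 to 679 genes at 0 among 10312 genes with a mean over 200 counts, against at most 13 in any other library. In all of them but that of 9500 mouse 7, mitochondrial genes took 20.7% to 45.1% of the counts. In those same 4 libraries the log2 ratio of the mean CPM of GC-rich over GC-poor genes was between -5.83 and -3.69, against -1.75 or more in every other female library. Exons of Dbp have 61.6% GC, percentile 98.2 of the genes tested in female mice, and those of Per1 59.4%, percentile 94.6, while those of Clock have 40.9%. Many female results that rest on these libraries are also given without them, but not all, as the test of any difference among the 6 groups is not. Without all 5 there are 13 female mice. Markers of alveolar and airway epithelium, endothelium and macrophages were counted in every library, in CPM (counts scaled to an equal library size). Of the marker lists of other tissues, the summed level reached 15.9 CPM for liver, 6.36 CPM for skeletal muscle, 505.5 CPM for heart muscle and 527.5 CPM for adipose, the last in a female oil mouse against a female median of 28.6 CPM. Red blood cell markers summed to between 315 and 14561 CPM. The part of these cells in the results was not tested. In lung tissue, fewer cells of a type and less RNA per cell cannot be told apart.

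Levels are given in CPM on effective library sizes, and between genes as CPM per kilobase of exon. In male mice the highest median level per kilobase was that of Nr1d1 with 98.6, followed by Per1 with 31.8, Tef with 24.3, Nr1d2 with 20.2, Per2 with 12.4, Dbp with 11.6, Per3 with 5.97, Clock with 3.32, Npas2 with 2.005 and Arntl with 1.87. Neighbours in this order overlapped over the mice, as Dbp ran from 2.53 to 36.3 per kilobase and Per2 from 3.84 to 23.4. In the 13 female mice Nr1d1 also had the highest median, 145.7 per kilobase, and Npas2 the lowest, 0.659. The tables were scaled separately, so levels are set side by side without a test. Arntl and Npas2 were lower in the female than in the male table, with a median of 5.66 CPM of Arntl in the 13 female mice against 14.1 CPM in male mice and 3.16 against 9.61 CPM of Npas2. Dbp had a median of 91.5 CPM in those female mice against 34.6 CPM in male mice.

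Of the activators, Arntl had 24.9, 14.2 and 12.05 CPM in the male saline mice, 22.15, 7.94 and 15.6 CPM with oil, 23.1, 15.65 and 6.33 CPM with 9500, 14.1, 9.91 and 14.4 CPM with 9527, 19.2, 7.76 and 13.0 CPM with 9500+oil, and 14.0, 13.1 and 3.01 CPM with 9527+oil. All 6 groups overlapped. Npas2 was between 6.00 and 25.0 CPM in male saline mice and between 3.75 and 13.6 CPM in male 9527+oil mice. Clock, the steady partner of the pair, stayed between 36.7 and 54.1 CPM in all 18 male mice. In female mice Arntl was counted 0 times in saline mouse 3, 9500 mouse 7 and 9527 mouse 11, which allows up to 0.349, 0.152 and 0.317 CPM. Dbp, with 2159 and 2783 counts in the other female saline mice, was also at 0 in saline mouse 3. All 3 libraries are among the 5 that stood apart, and the 13 female mice without those 5 had 2.58 to 8.81 CPM of Arntl. Clock was at 4.95 CPM in 9500 mouse 7 and at 59.4 CPM in saline mouse 3, against 15.6 to 33.9 CPM in the 13 mice.

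Of the period genes, Per1 had 118, 176 and 125 CPM in female saline mice and 324, 376 and 346 CPM in female 9527+oil mice. These groups did not overlap. Female 9500 mice had 141, 430 and 389 CPM of Per1, of which the lowest was mouse 7. Per2 had 52.4, 64.3 and 60.3 CPM in female saline mice and 97.5, 103 and 133 CPM in female 9527+oil mice, again without overlap. Female Per3 did not overlap either, at 87.3 to 96.5 CPM with 9527+oil and 34.2 to 73.2 CPM in saline. Female Per2 with 9527, at 64.35 to 151 CPM, also lay above all saline mice, the highest of which had 64.29 CPM. In male mice Per1 ran from 112 to 318 CPM, with 186, 128 and 181 CPM in saline and 112, 271.5 and 311 CPM in 9527+oil mice, which overlapped. Per3 was between 27.8 and 94.9 CPM over the 18 male mice. Its male 9527+oil mice had 59.8, 65.1 and 94.9 CPM against 27.8, 43.9 and 66.2 CPM in saline.

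Of the receptors, Nr1d1 had 118, 302 and 380 CPM in male saline mice and 293, 536 and 412.5 CPM in male 9500+oil mice. Nr1d2 had 54.7, 89.3 and 149 CPM in male saline and 106, 120 and 166 CPM in male 9527+oil mice. Both overlapped between the groups. Of the output factors, which bind D-boxes, Dbp ran from 7.56 to 109 CPM in male mice, a ratio of highest to lowest of 14.4, the largest such ratio of the 10 genes there. It had 7.56, 21.2 and 30.55 CPM in saline, 15.9, 25.5 and 39.6 CPM with oil, 15.6, 35.6 and 64.35 CPM with 9500, 18.8, 29.2 and 48.4 CPM with 9527, 33.7, 109 and 64.6 CPM with 9500+oil, and 62.3, 48.2 and 79.6 CPM with 9527+oil. All mice of both oil and dispersant groups were above all saline mice. In female mice with 9527+oil, Dbp at 101 to 136 CPM and Tef at 254.5 to 263 CPM lay above all saline mice. Female saline mice had 0 to 87.6 CPM of Dbp and 44.6 to 205 CPM of Tef, the lowest of each in mouse 3. The share of all genes that part in this way is not given here, so these partings are described without a background. Tef, a relative of Dbp, ran from 118 to 328 CPM in male mice with overlapping groups.

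**Figure D1:**
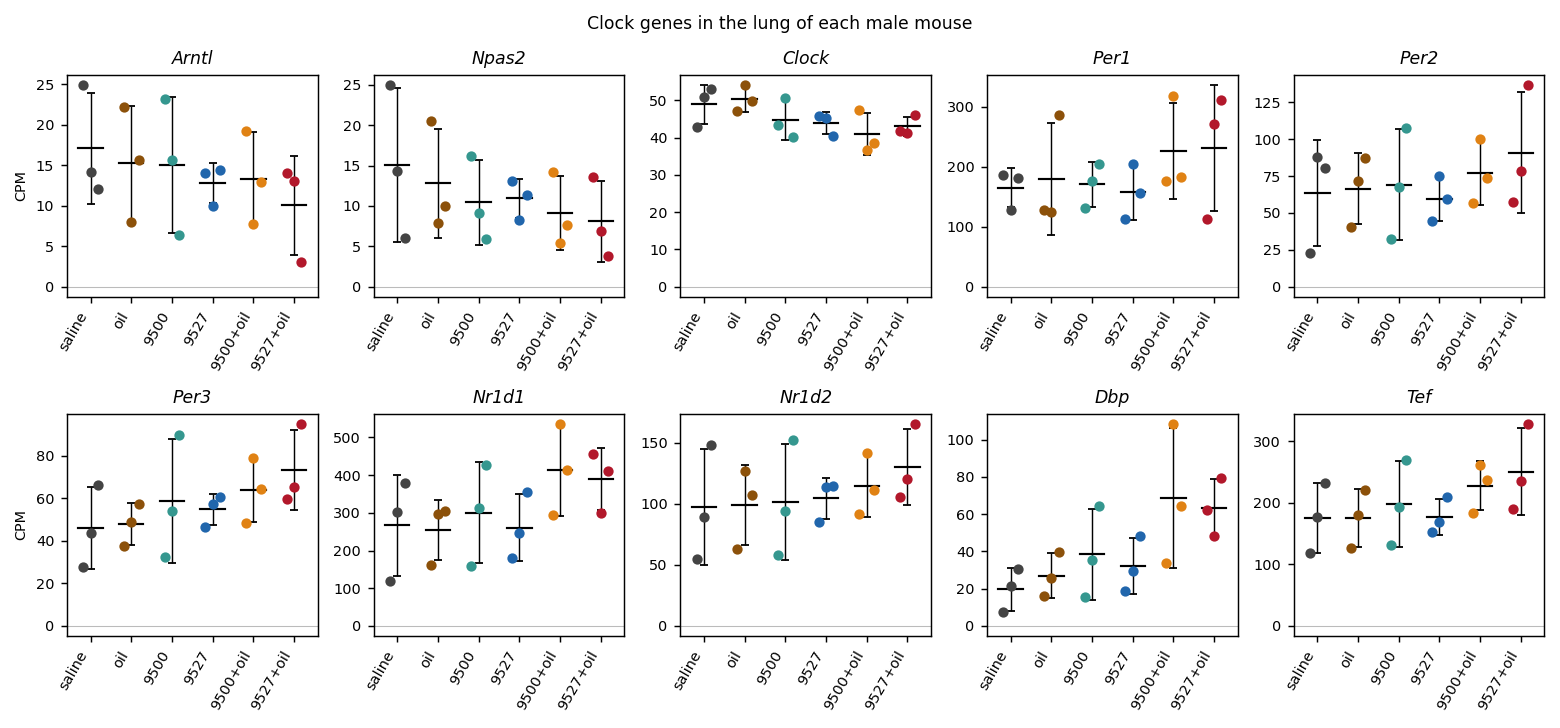
CPM of each clock gene (y axis) in each of 18 male mice by treatment (x axis); points are mice, lines the mean and bars the SD of 3 mice. Dbp of the 9500+oil and 9527+oil mice, 33.7 to 109 CPM, lies above that of saline mice, at most 30.55 CPM.

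**Figure D2:**
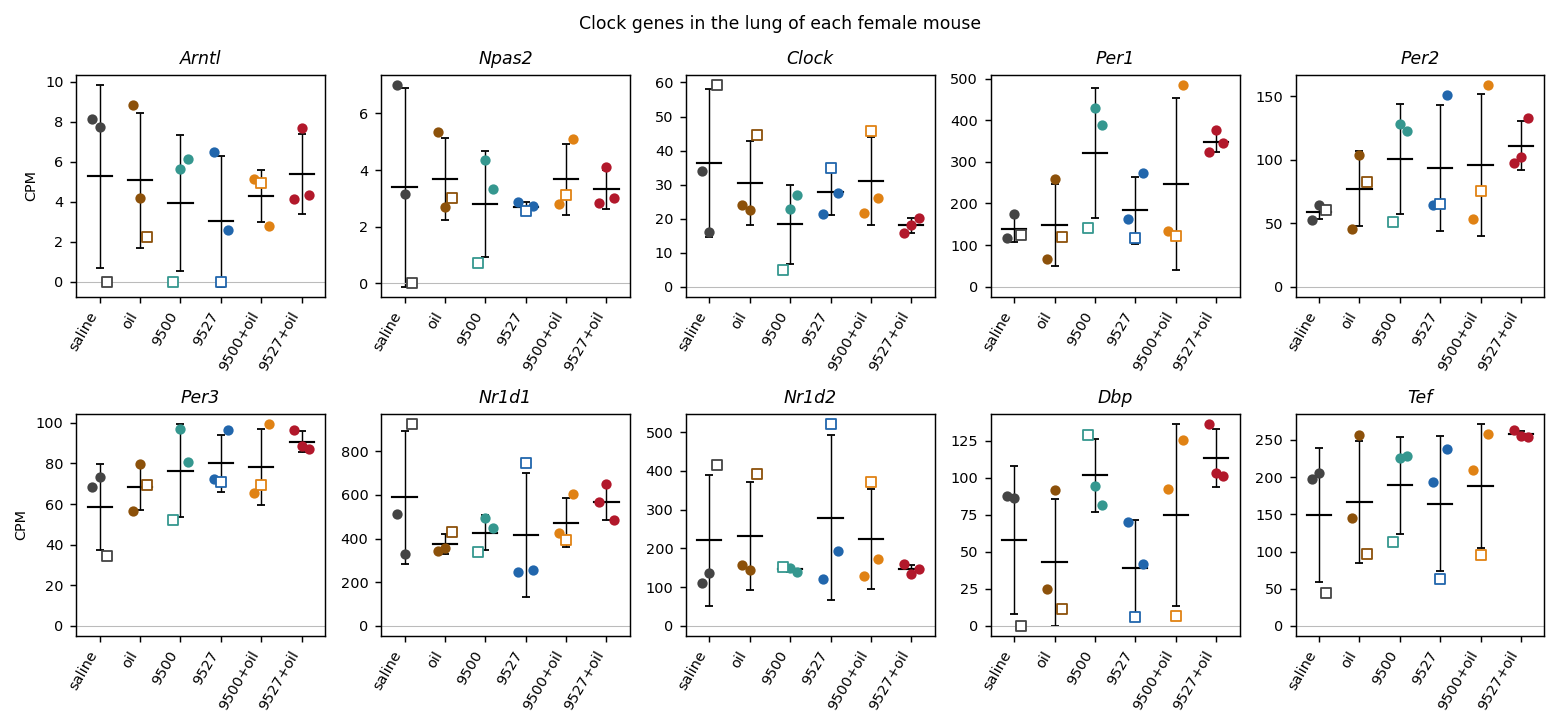
CPM of each clock gene (y axis) in each of 18 female mice by treatment (x axis); points are mice, open squares the 5 libraries that stood apart, lines the mean and bars the SD of 3 mice. Arntl is at 0 in 3 of the open squares, and Per1 of the 9527+oil mice, 324 to 376 CPM, lies above saline.

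Each treatment was compared with saline within a sex by edgeR's quasi-likelihood test, with Benjamini-Hochberg adjustment over all genes tested. None of the 10 genes passed an adjusted p of 0.05 in any of these 10 comparisons, and the lowest adjusted p among their 100 tests was 0.506. The background was as sparse. In female mice 0% of the genes passed with every treatment. In male mice 0.00671% passed with oil, 0.00662% with 9500, 0.114% with 9527, 0% with 9500+oil and 0.00669% with 9527+oil. DESeq2 called 1 of these 100 tests, that of Per1 described later. An unadjusted p under 0.05 was reached by 3 of the 50 female tests and 2 of the 50 male tests. Over all genes that share was 0.108% with oil, 0.364% with 9500, 0.267% with 9527, 0.155% with 9500+oil and 1.1% with 9527+oil in female mice, and 8.21%, 6.35%, 13.7%, 9.22% and 5.54% in the same order in male mice.

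Dbp had the largest fitted differences from saline of the 10 genes in male mice. Its level was 68.9 ± 37.6 CPM (SD, n = 3) with 9500+oil and 63.4 ± 15.7 CPM with 9527+oil against 19.8 ± 11.6 CPM in saline. The log2 fold change was 1.80 ± 0.51 (SE, edgeR, unadjusted p = 0.00639, adjusted p = 0.506) with 9500+oil. It was 1.68 ± 0.42 (edgeR, unadjusted p = 0.00371, adjusted p = 0.885) with 9527+oil. Endothelial markers summed to 3705 to 3765 CPM in these 9527+oil mice and 3774 to 4267 CPM in saline, without overlap, and their part in the difference of Dbp was not tested. The 3 treatments with a single agent gave 0.44 ± 0.47 for oil, 0.96 ± 0.55 for 9500 and 0.70 ± 0.47 for 9527, and every interval of these included 0. Both oil and dispersant comparisons share the same 3 saline mice. With 1 mouse left out in turn the change of Dbp ran from 1.31 to 2.26 with 9500+oil and from 1.29 to 2.14 with 9527+oil.

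For every other male gene the 95% interval of its difference from saline included 0 in each treatment. Arntl and Npas2 were lower than saline as fitted in all 5 treatments, with log2 changes from -0.77 to -0.16 and from -0.90 to -0.24. Per3, Nr1d2 and Dbp were higher as fitted in all 5, Per1, Per2 and Tef in 4 of 5 and Nr1d1 in 3 of 5, while Clock was lower in 4 of 5. With 9527+oil, Arntl was at -0.77 ± 0.51, Npas2 at -0.90 ± 0.56 and Per3 at 0.67 ± 0.30, of which Per3 had an unadjusted p of 0.0523 (edgeR, adjusted p = 0.885). DESeq2 gave Per3 an unadjusted p of 0.0131 (adjusted p = 0.639) and Tef one of 0.0308 (adjusted p = 0.84) there. All 5 comparisons share the saline mice, so a shared direction is not 5 separate results.

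In female mice Per1, Per2, Per3 and Tef were higher as fitted in all 5 treatments, and Clock and Nr1d1 lower in all 5. Without the libraries over 20% mitochondrial, among them saline mouse 3 with 925 CPM of Nr1d1, several of these turned: Nr1d1 to 0.02 with 9500, 0.29 with 9500+oil and 0.43 with 9527+oil, Per3 to -0.05 with oil and Tef to -0.09 with 9500. Per1 with 9527+oil was 1.31 ± 0.25 above saline on the log2 scale (edgeR, unadjusted p = 0.00194, adjusted p = 0.914) and Per2 was 0.90 ± 0.23 above it (edgeR, unadjusted p = 0.00796, adjusted p = 0.914). Per1 with 9500 was at 1.19 ± 0.48 (edgeR, unadjusted p = 0.0426, adjusted p = 1). Without saline mouse 3 and 9500 mouse 7, which leaves 2 mice a group, Per1 with 9500 was at 1.48 ± 0.21 (edgeR, unadjusted p = 0.000133, adjusted p = 0.162) and Per2 at 1.10 ± 0.15 (edgeR, unadjusted p = 8.62e-05, adjusted p = 0.162), in a fit with 11.3% of all genes under an unadjusted p of 0.05. DESeq2 called Per1 with 9527+oil, with an adjusted p of 0.00233, where it called 0.0471% of all genes. Of the female saline libraries that of mouse 3 was among the 4 low in GC-rich genes, and 2 alternatives bear on it. Offsets for GC content and gene length turned Per1 with 9527+oil to -0.36 ± 0.74 and Per1 with 9500 to -0.20 ± 0.74, and left Per2 with 9527+oil at 0.11 ± 0.46. Leaving out the libraries with over 20% mitochondrial counts, which takes saline mouse 3 away, left Per1 with 9527+oil at 1.25 ± 0.18 (edgeR, adjusted p = 0.297) and Per2 at 0.93 ± 0.17 (edgeR, adjusted p = 0.314). In that fit 5 of the 10 genes, Per1, Per2, Per3, Dbp and Tef, had an unadjusted p under 0.05, where the share over all genes was 12.3%. Female macrophage markers summed to 315 to 347.5 CPM with 9527+oil and 496 to 593 CPM in saline, without overlap, and their part in these differences was not tested. The standard errors of Arntl and Dbp in the female comparisons reached 1.92 and 1.74, and with 9527 the interval of Arntl ran from -5.44 to 3.84.

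**Figure D3:**
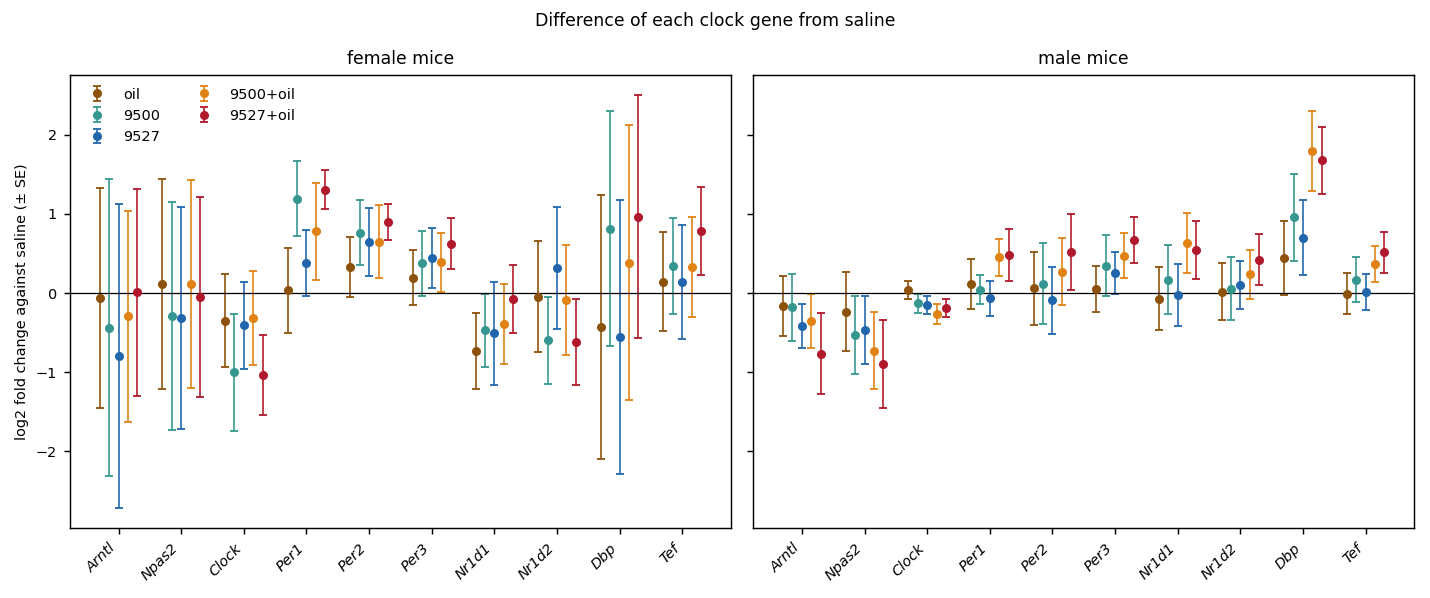
Log2 fold change of each clock gene (x axis) from saline, fitted in edgeR (y axis, bars SE), for 5 treatments in female and male mice. Dbp with 9500+oil and 9527+oil, at 1.80 and 1.68, stands highest in male mice, while female bars of Arntl, Npas2 and Dbp are wide.

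Over both sexes, with sex as a covariate, none of the 10 genes passed with any treatment, at a background of 0% for oil, 9500, 9500+oil and 9527+oil and 0.0326% for 9527. With 9527+oil the 3 period genes had an unadjusted p under 0.05, which 2.99% of all genes had. Per1 was at 0.90 ± 0.26, Per2 at 0.71 ± 0.32 and Per3 at 0.64 ± 0.24 on the log2 scale (edgeR, adjusted p = 0.837 for each). With GC and length offsets Per1 was at 0.02 ± 0.45, Per2 at 0.30 ± 0.38 and Per3 at 0.44 ± 0.20. Without the libraries over 20% mitochondrial they were at 0.82 ± 0.25, 0.70 ± 0.31 and 0.53 ± 0.19 (edgeR, adjusted p = 0.378, 0.461 and 0.402). Dbp then had the lowest p of the 10 genes, at 1.07 ± 0.32 (edgeR, unadjusted p = 0.0057, adjusted p = 0.378). Tef was at 0.44 ± 0.16 (edgeR, unadjusted p = 0.0195, adjusted p = 0.41). With 9500+oil in that setting, Dbp was at 1.195 ± 0.41 (edgeR, unadjusted p = 0.0138, adjusted p = 0.694) and Per1 at 0.71 ± 0.32 (edgeR, unadjusted p = 0.0451, adjusted p = 0.694). The share of all genes in these fits is not given here. The interaction of sex and treatment passed for none of the 10 genes, at 0% of all genes in each of the 5 treatments, and its lowest adjusted p among them was 0.948. DESeq2 called 0 of the 10 genes in these fits over both sexes, and edgeR had 0 of 50 interactions under an unadjusted p of 0.05. The interaction for Dbp with 9500+oil was 1.42 ± 1.98 (male minus female), an interval from -2.95 to 5.79, and without the libraries over 20% mitochondrial it was 1.46 ± 0.73 (edgeR, unadjusted p = 0.0713, adjusted p = 1). In that setting 1 of the 50 interactions had an unadjusted p under 0.05, Dbp with 9527+oil at 1.29 ± 0.53 (edgeR, unadjusted p = 0.0333, adjusted p = 0.733), where 6.73% of all genes did. Without saline mouse 3 and 9500 mouse 7 in female mice, Per1 with 9500 had an interaction of -1.45 ± 0.32 (edgeR, unadjusted p = 0.000918, adjusted p = 0.462), where 7.88% of all genes had an unadjusted p under 0.05. A test of any difference among the 6 groups passed for none of the 10, against 0.0129% of genes in female and 0.135% in male mice. Dbp had the lowest p of the 10 in male mice, 0.0302 (edgeR, adjusted p = 0.421), where 10.4% of all genes were under 0.05.

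Adding oil to a dispersant was compared with that dispersant alone. None of the 10 genes passed in any of the 4 comparisons, at 0% of genes in 3 of them and 0.0134% for 9527+oil against 9527 in male mice. An unadjusted p under 0.05 was found for 0.899% of all genes for 9500+oil and 6.65% for 9527+oil in female mice, and for 4.47% and 11.6% in male mice. In male mice Dbp was 0.98 ± 0.32 higher with 9527+oil than with 9527 (edgeR, unadjusted p = 0.0155, adjusted p = 0.369) and Tef 0.50 ± 0.20 higher (edgeR, unadjusted p = 0.0389, adjusted p = 0.417). Male markers parted between these groups without overlap: with 9527+oil and with 9527 in turn, endothelial markers summed to 3705 to 3765 and 3114 to 3292 CPM, club cell markers to 20022 to 23125 and 14901 to 18101 CPM, ciliated cell markers to 585 to 644 and 413 to 540 CPM, and fibroblast markers to 2243 to 2438 and 2959 to 3441 CPM. Macrophage markers reached from 350.9 to 650.8 CPM and from 650.9 to 1390 CPM. The part of these markers in the differences of Dbp and Tef was not tested. In female mice Per1 was 0.93 ± 0.35 higher (edgeR, unadjusted p = 0.0349, adjusted p = 0.555), and GC and length offsets turned it to -0.29. Leaving out 9527 mouse 11 kept Per1 at 0.70 ± 0.22 (edgeR, unadjusted p = 0.0128, adjusted p = 0.149). In that fit Dbp was at 1.03 ± 0.24 (edgeR, unadjusted p = 0.00308, adjusted p = 0.0852) and Clock at -0.43 ± 0.18 (edgeR, unadjusted p = 0.0417, adjusted p = 0.235). Without 9527 mouse 11, whose library stood apart, Nr1d1 was 1.18 ± 0.17 higher with 9527+oil (edgeR, adjusted p = 0.0329), in a fit that called 0.757% of all genes and had 19.6% under an unadjusted p of 0.05. Nr1d1 had 567, 648 and 483 CPM in these 9527+oil mice, 249 and 255 CPM in 9527 mice 10 and 12, and 746 CPM in mouse 11. With mouse 11 kept, Nr1d1 was at 0.43 ± 0.50 (edgeR, adjusted p = 0.694), at 0.40 ± 0.57 in DESeq2 and at -1.16 ± 0.97 with GC and length offsets. Female cell markers moved with these groups: endothelial markers summed to 3521 to 4013 CPM with 9527+oil and 2212 to 2613 CPM with 9527, and macrophage markers to 315 to 347.5 CPM and 1028 to 1919 CPM. In the same order, ciliated cell markers summed to 526 to 570 and 365 to 430 CPM and fibroblast markers to 1656 to 2180 and 2232 to 3016 CPM. Neutrophil markers summed to 116 to 136 and 45.6 to 108 CPM, and heart muscle markers to 326 to 388 and 124.5 to 270 CPM. The part of these markers in the difference of Nr1d1 was not tested.

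The spread among mice of the same treatment differed between the genes. The SD of log2 CPM within male groups was 0.80 for Dbp and for Arntl, 0.77 for Npas2 and 0.71 for Per2, against a median of 0.20 over 15519 genes, which puts them at percentiles from 92.8 to 94.4. Clock was at 0.14 and percentile 26.5. The other male genes were at percentiles from 80.2 to 90. In the 13 female mice Per1, Per2, Arntl, Dbp and Npas2 were at percentiles from 85.8 to 94.6 and Clock at 70.6, while Per3, Nr1d1, Nr1d2 and Tef were at 49.5 to 52.9, near the median gene.

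Levels were then compared between genes over the same mice. Over the 18 male mice Arntl correlated with Npas2 at r = 0.87 (rho = 0.89, permutation p = 1e-05 for both, the smallest that 100000 permutations can give, adjusted p over all genes 0.0388 for r and 0.0517 for rho) and with Nr1d2 at r = -0.84 (rho = -0.89, with the same p-values), where 0.0258% of all genes passed on r and 0% on rho. It correlated with Per3 at r = -0.82 (rho = -0.80, permutation p = 2e-05 and 9e-05, adjusted p for r 0.0621), with Per2 at -0.81 (rho = -0.78, permutation p = 0.00012 and 0.00024, adjusted p for r 0.155) and with Tef at -0.79 (rho = -0.70, permutation p = 5e-05 and 0.00158, adjusted p for r 0.097). Dbp at r = -0.67 and Nr1d1 at r = -0.64 had adjusted p-values of 0.578 and 0.613 in that permutation test. Per1 was at r = -0.48 (adjusted p 0.959) and Clock, the partner of Arntl, at r = 0.08 (adjusted p 0.999). Ranked by the size of r, Npas2 was 1st, Nr1d2 3rd, Per3 5th, Per2 6th and Tef 9th of 15518 genes. The mice with high Arntl and Npas2 were thus the mice with low Per2, Per3, Nr1d2 and Tef. Without the 2 mice farthest from the median of Arntl, r was 0.84 for Npas2, -0.86 for Nr1d2, -0.75 for Per3, -0.77 for Per2 and -0.67 for Tef. Measured within treatment groups, as deviations from the group mean, r was 0.87, -0.83, -0.80, -0.80 and -0.78 in the same order. All levels in a mouse come from 1 library and share its scaling.

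**Figure D4:**
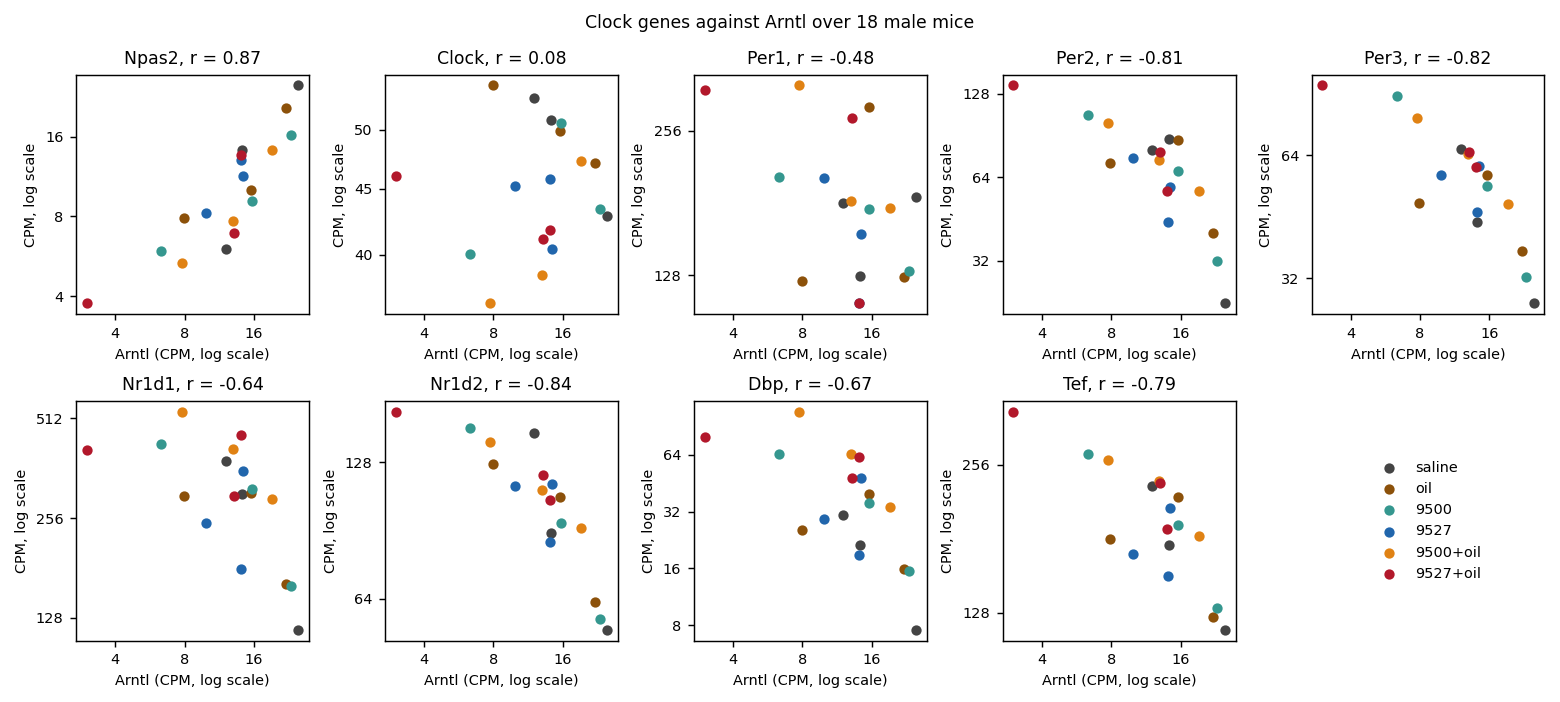
CPM of 9 clock genes (y axes, log scale) against CPM of Arntl (x axis, log scale) in 18 male mice, coloured by treatment, with Pearson r of log2 CPM. Npas2 is high where Arntl is high, r = 0.87, Nr1d2, Per3, Per2 and Tef are low there, and Clock is at r = 0.08.

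The same was done with Dbp. Over the male mice it correlated with Nr1d1 at r = 0.93, with Per3 at 0.92 and with Tef at 0.90, ranks 1, 2 and 4 of 15518 genes by the size of r. The first 3 each had a permutation p of 1e-05, the smallest possible, and an adjusted p of 0.0155, with rho of 0.90, 0.89 and 0.92 and rho's permutation p of 2e-05, 1e-05 and 1e-05. Nr1d2 at r = 0.82 (rho = 0.74, permutation p = 4e-05 and 7e-04, adjusted p for r 0.0296) and Per2 at r = 0.80 (rho = 0.67, permutation p = 8e-05 and 0.00328, adjusted p for r 0.04) passed on r as well. Npas2 was at r = -0.78 (adjusted p 0.0639 in the permutation test). Without the 2 mice farthest from the median of Dbp, r was 0.88 for Nr1d1, 0.89 for Per3, 0.88 for Tef, 0.75 for Nr1d2 and 0.69 for Per2. The male mice with high Dbp were thus those with high Nr1d1, Per3 and Tef, and deviations from the treatment group means gave r of 0.96, 0.93 and 0.91. These shares of all genes passed with Dbp in male mice: 0.206% on r and 0.206% on rho. In the 13 female mice 19.2% of all genes passed on r and 7.76% on rho, so a gene that passes there is 1 of 2975 on r. Dbp had r = 0.75 with Tef, rank 2005 of 15525 genes (rho = 0.75, permutation p = 0.00882 and 0.00438, adjusted p for r 0.0476, for rho 0.0535), and r = 0.77 without the 2 farthest mice. Nr1d1, rank 3650, was at r = 0.65 (rho = 0.83, permutation p = 0.0122 and 0.00092, adjusted p 0.0573 and 0.026, r = 0.77 without the 2 farthest), and deviations from the group means gave 0.19. Per1, rank 3843, was at r = 0.64 (rho = 0.58, permutation p = 0.0191 and 0.0429, adjusted p 0.0759 and 0.177, r = 0.53 without the 2 farthest). The r of Per3 was 0.54, of Per2 0.36, of Npas2 -0.13 and of Nr1d2 -0.24, none of which passed in the permutation test over all genes. Without the 2 farthest mice these were 0.71, 0.49, 0.12 and 0.74, so the negative signs of Npas2 and Nr1d2 rest on those 2, and the rho of Nr1d2 was 0.14 with them.

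The same relation was fitted as a slope on Arntl with treatment as a term, which asks how a gene changes among mice given the same treatment. In male mice 7 of the other 9 genes had an unadjusted p under 0.05, against 8.19% of all genes, and 0% of genes passed after adjustment. Per 2-fold of Arntl, Npas2 was higher by 0.86 ± 0.13 on the log2 scale (edgeR, adjusted p = 0.0524), and Per2 was at -0.69 ± 0.14, Dbp at -0.66 ± 0.20, Nr1d2 at -0.53 ± 0.10, Per3 at -0.48 ± 0.10, Nr1d1 at -0.44 ± 0.16 and Tef at -0.39 ± 0.09. DESeq2 called 5 of the 9, Npas2, Nr1d2, Per3, Per2 and Tef, where it called 0.271% of all genes.

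In female mice the slope over all 18 libraries called 5 of the 9 genes where it called 38.7% of all genes and 51.8% had an unadjusted p under 0.05. The slopes called there were positive for Npas2 at 0.36 ± 0.13, Tef at 0.25 ± 0.06 and Per3 at 0.10 ± 0.04, of which those of Tef and Per3 have the opposite sign to male mice, and negative for Nr1d2 at -0.22 ± 0.06 and Nr1d1 at -0.14 ± 0.05. GC and length offsets turned that of Per3 to -0.02 ± 0.03. Without the 5 libraries that stood apart, a choice made after seeing the data, it called 0 of 15561 genes, with 3.59% of them under an unadjusted p of 0.05. Of the 9 clock genes 5 were under it: Per2 at -0.97 ± 0.19 per 2-fold of Arntl (edgeR, adjusted p = 0.782), Per1 at -0.97 ± 0.30, Per3 at -0.38 ± 0.11, Tef at -0.34 ± 0.12 and Nr1d2 at -0.31 ± 0.12. Over these 13 mice Arntl correlated with Per2 at r = -0.73 (rho = -0.76, permutation p = 0.00537 and 0.0036, adjusted p over all genes 1) and with Nr1d2 at r = -0.73 (rho = -0.63, permutation p = 0.00494 and 0.0239, adjusted p 1), ranks 45 and 51 of 15525 genes, of which 0% passed on r or on rho. Without the 2 mice farthest from the median of Arntl these were -0.58 and -0.38. Per1, Per2, Per3, Nr1d2, Tef, Dbp (r = -0.22) and Npas2 (r = 0.40) had r of the same sign as in male mice, while Nr1d1 had r = 0.02 and Clock r = -0.10. Nr1d1 correlated with the summed endothelial markers, r = 0.92 (rho = 0.92, permutation p = 5e-05 and 6e-05, adjusted p = 0.008 over 160 relations with marker lists, r = 0.83 without the 2 farthest mice), the 1 such relation that passed. In male mice none of 160 passed and that one had r = 0.36. Dbp correlated with the balance of GC-rich over GC-poor genes in these 13 libraries at r = 0.91 (rho = 0.50, permutation p = 0.00161 and 0.0865, adjusted p = 0.0483 over 30 relations), and at r = 0.22 without the 2 libraries farthest from the median of that balance, so the relation rests on them. In male mice that r was 0.01. 

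**Figure D5:**
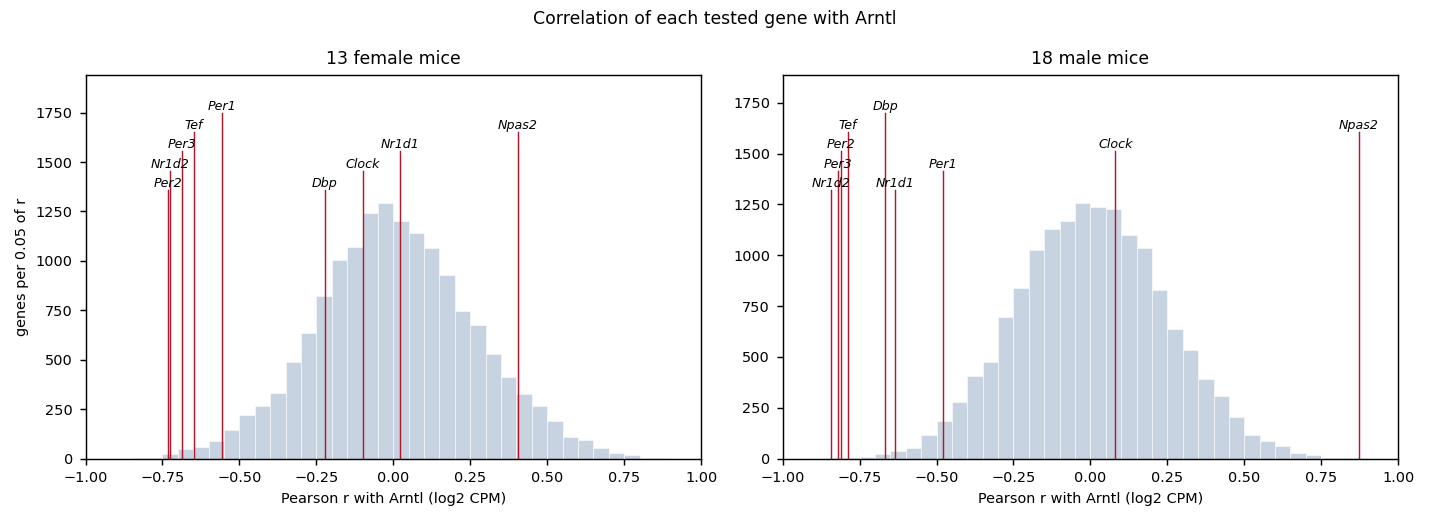
Number of tested genes (y axis) by Pearson r with Arntl (x axis, bins of 0.05), in 13 female mice without the 5 libraries that stood apart and in 18 male mice; red lines mark the 9 other clock genes. In male mice Npas2 stands at 0.87 and Nr1d2, Per3, Per2 and Tef between -0.84 and -0.79.

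Of 22 other genes of the clock, 20 or 21 were tested in each comparison. None passed in any treatment comparison. With 9527+oil in female mice 13 of 20 were higher and 7 lower as fitted, with a median of 0.20 against 0.09 over all genes, and the lowest p was that of Cry2, a cryptochrome, at 0.54 ± 0.23 (edgeR, unadjusted p = 0.054, adjusted p = 0.914). With 9500+oil in male mice Bhlhe41, a repressor that competes for E-boxes, was at 0.72 ± 0.28 (edgeR, unadjusted p = 0.0318, adjusted p = 0.52). On Arntl in male mice, 9 of the 21 had a negative and 1 a positive slope with an unadjusted p under 0.05, which 8.19% of all genes had, and the median slope of the 21 was -0.12 against 0.0022 over all genes. The 3 with the smallest p were Ciart, a repressor of the Arntl pair, at -0.44 ± 0.08 (edgeR, adjusted p = 0.151), Rora at -0.19 ± 0.05 and Cry2 at -0.22 ± 0.07. In the 13 female mice 7 of the 21 had a negative and 0 a positive slope by that measure, which 3.59% of all genes met, with the smallest p for Ciart at -0.66 ± 0.12, Wee1 at -0.87 ± 0.17 and Usp2 at -0.67 ± 0.15.

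Glucocorticoid-responsive genes, which follow the daily corticosterone rhythm and stress, were counted as well. None of 14 passed in any treatment comparison. All 14 had a negative slope on Arntl in the 13 female mice, with a median of -0.63 against -0.0046 over all genes, and 8 had an unadjusted p under 0.05 (3.59% of all genes), with Errfi1 at -0.88 ± 0.20, Tsc22d3 at -1.19 ± 0.28 and Angptl4 at -0.68 ± 0.20. In male mice 10 were negative and 1, Zbtb16 at -0.98 ± 0.43, had an unadjusted p under 0.05 (8.19% of all genes). Of 10 immediate early genes, which respond within minutes to handling and other stimuli, 0 did so in the 13 female mice and 1, Egr1 at 0.54 ± 0.16, in male mice, beside the same shares of all genes.

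Genes most like Arntl were sought as those with the largest smaller |r| of the 2 tables, of the same sign in both. Over all 18 mice of each table the 10 outside the clock group were Igkv4-72 (r = 0.84 in female and 0.75 in male mice), Sgsh, Vav2, Gramd4, Ralgds, Abca3, 3000002C10Rik, Mrc2, Tjp3 and Tex11, where the female values include the libraries that stood apart. Without these, the 10 were Spon2 (r = 0.89 in female and 0.85 in male mice), Dtx4, Cpeb1, Clmp, Wee1, Ciart, Hlf, Gyg, Nanos1 and Fam210b, of which Wee1 (-0.79 and -0.72), Ciart (-0.85 and -0.71) and Hlf (-0.73 and -0.70) are on the list of other clock genes. None of the 10 was in both lists. The 10 most like Dbp over all mice were Eef2k (r = 0.89 in female and 0.88 in male mice), Sirt2, Flrt3, Por, Slc41a1, Mfap2, Pacsin2, Gtpbp1, Klhl13 and 2510039O18Rik, and Eef2k, Sirt2, Slc41a1, Mfap2 and Gtpbp1 were again among the 10 without the 5 libraries.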

How the data were processed

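Reads of the left lung of 36 mice came from stranded mRNA libraries. The authors estimated reads per transcript with Salmon on the GRCm38 transcriptome, combined them with tximport and deposited expected counts in 1 table a sex, which were already whole numbers; how they became whole is not given in the sources used here. Rows sharing a name, 4 in each table, were left out. The 10 genes and the other lists were chosen with earlier results of these data known. Groups came from the labels. TMM normalization, filterByExpr and quasi-likelihood tests were run in edgeR 4.0.16 in R 4.3.3 with Benjamini-Hochberg adjustment over all genes tested and a threshold of 0.05, and tested on simulated data. Log2 CPM used a prior count of 2. Correlations used 100000 two-sided permutations in numpy 2.4.6. GC content and exon length came from GENCODE M21, which matched 95.30% of the names. Alternatives were DESeq2 1.42.0, its size factors, no filter, all groups in 1 fit, offsets for GC content and length, plain or mitochondria-free totals, and leaving out mice or libraries. Named beside the 10 genes were the 3 of each list with the smallest p in a comparison discussed, and the 10 genes most like Arntl or Dbp. Each mouse is 1 library, so p-values measure the spread between mice together with that between libraries. The median SD of log2 CPM within female groups over all genes was 0.70 with all mice and 0.24 without the 5 libraries that stood apart. Totals of 17501180 to 30011557 counts allow a gene counted 0 times at most 3 counts; such limits cover counting error only.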

Additional observations from a re-analysis of the deposited data

How the results depend on the processing

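Of 66 alternative values of the single differences 62 kept their direction and side of the threshold, as did all 84 with 1 mouse left out. Of the 10 clock genes, 1 passed for 9527+oil against saline in female mice under DESeq2 (0.0471% of all genes), and 1 for 9527+oil against 9527 in female mice without the libraries over 20% mitochondrial (0.757%; 0 to 1 with 1 mouse left out, 1 without 9527 mouse 11). The female slope on Arntl called 5 of 9 genes (38.7% of all genes), 2 without the libraries over 20% mitochondrial (19.6%), 0 without the 5 libraries that stood apart (0%, chosen after seeing the data), 3 with no treatment term (41.2%) and 0 to 5 with 1 mouse left out, the 0 without saline mouse 3. With GC and length offsets it called Per1, at -0.23, Nr1d1, Nr1d2 and Tef (34.8% of all genes). With DESeq2 size factors in edgeR it called Npas2, Nr1d1, Nr1d2 and Tef (41.4%). The male slope called 0 (0% of all genes), but 5 under DESeq2 (0.271%), 1 with no filter on low counts (0.0164%), 4 with no treatment term (0.0322%) and 0 to 1 with 1 mouse left out (1 without saline mouse 3 or 9527+oil mouse 17).

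Offsets for GC content and length also took Per1 for 9527+oil against saline over both sexes from 0.90 to 0.02. They reversed Per1 in female mice to -0.20 (9500 against saline), -0.36 (9527+oil against saline) and -0.29 (9527+oil against 9527), and the female slopes on Arntl of Per1 to -0.23, Per2 to -0.11, Per3 to -0.019 and Clock to 0.10. Without the 5 libraries the female slopes reversed for Per1 to -0.97, Per2 to -0.97, Per3 to -0.38, Dbp to -0.35 and Tef to -0.34. Without the libraries over 20% mitochondrial they reversed for Clock to 0.33, Nr1d1 to 0.065 and Dbp to -0.11. With 1 mouse left out, the female slope of Per2 ran from -0.0092 to 0.11 and that of Clock from -0.16 to 0.093. The male slope of Clock was 0.014 with no treatment term and ran from -0.065 to 0.013 with 1 mouse left out. The cause of these reversals was not tested.

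Mouse numbers are shared by the sexes. Over 18 pairs the correlation of deviations from the group mean ran from -0.38 to 0.231, with 7 over 0.1, so the numbers were not taken as pairs; with the mouse number as a replicate block the interaction called 0 of the 10 genes in each of the 5 treatments, and so did the fit without it. Among the shallower female libraries, that of 9500+oil mouse 14, with 17532403 counts, had 75 of Arntl, while saline mouse 3, 9527 mouse 11 and 9500 mouse 7, with 17501180, 17654791 and 18751248 counts, had 0.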
